A study of Mus musculus with 37 samples.

Results

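Mouse splenocytes that had been cultured with hypoxic RAW264.7 cells were compared according to whether the RAW264.7 cells had been washed before the splenocytes were added. The comparison was made up of 12 of the 37 libraries in the series, 6 labelled as exposed to washed and 6 as exposed to unwashed cells, and each set of 6 held 3 replicates without and 3 with SPP1. SPP1 had been given in the medium of the RAW264.7 cells during their own culture, before the splenocytes were added. Libraries were chosen by their treatment label alone, and the SPP1 levels were weighted equally. RAW264.7 is an established mouse macrophage-like line, so that every culture received cells of a single line, and the splenocytes came from wild-type FVB mice. In all 12 libraries the RAW264.7 cells had been kept for 72 h at 1% oxygen, the co-culture lasted 48 h, and Brefeldin A, which blocks protein secretion, was added before the splenocytes were collected. By the labels, the washed arm received the RAW264.7 cells after a wash of their medium and the unwashed arm received them as they were. Libraries were prepared from bulk RNA of the collected cells. The number of mice behind each library was not stated. The study describes the cells as lymphocytes isolated from the co-cultures, but the sources used here give no step that removes RAW264.7 cells from the RNA samples.

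The remaining libraries served as points of reference. They were the same washed and unwashed arms after normoxia (21% oxygen, 6 libraries each), splenocytes that received only the medium of RAW264.7 cells (6 after hypoxia and 5 after normoxia), and splenocytes labelled naive (2 libraries). The labels of the naive libraries state no exposure and no culture time.

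Macrophages exposed to low oxygen stabilize hypoxia-inducible transcription factors and shift toward glycolysis and the secretion of angiogenic and immunoregulatory proteins. Such proteins can reach lymphocytes through the medium, whereas membrane-bound ligands act only where cells touch. SPP1, or osteopontin, is a secreted ligand of integrins and CD44 that is made by tumor cells and by macrophages. A wash takes away the soluble products that had accumulated, and any floating cells or debris, and leaves the adherent cells, which go on secreting.

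The identity of the genes is limited by how the files were made. The mouse reads had been aligned to the human genome GRCh38, and the table lists 60708 human Ensembl gene IDs, of which 22657 had a count in any library and 5193 passed the filter on low counts. An ID therefore counts the mouse reads that fell on its human gene, and the mouse gene they came from is uncertain. The files do not pair IDs with symbols, and 0 of the IDs occur in the mouse gene table used here, so no symbol, function or position is given and the splenocyte label could not be checked against markers. Because the RNA was bulk, fewer cells of a type and less RNA per cell cannot be told apart. Levels are CPM, library-scaled counts after TMM normalization, and an ID is referred to as called where edgeR's quasi-likelihood test gave a Benjamini-Hochberg adjusted p under 0.05 over all 5193 IDs.

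The arms overlapped in sequencing depth. Total counts ran from 761571 to 1337314 in the washed and from 818419 to 1302620 in the unwashed libraries, and the number of IDs with a count was 8541 ± 753 in washed and 9249 ± 624 in unwashed (SD, n = 6 each). In two-sided exact permutation tests, which can give no p below 0.00216 with 6 against 6, p was 0.820 for the totals, 0.106 for the detected IDs and 0.621 for the share of counts in the 10 most abundant IDs (0.820, 0.318 and 0.820 after Benjamini-Hochberg adjustment over these 3 tests). On the first principal component of the 12 libraries (36.3% of the variance) washed hypoxia SPP1 replicate 1 lay at 79.6 and unwashed hypoxia no-SPP1 replicate 2 at 34.1, whereas the other 10 lay between -23.8 and 13.1. On the second component (12.9%) the washed libraries lay between -21.7 and -6.09 and the unwashed between -6.34 and 31.4.

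Washing mostly went with lower levels. After hypoxia 84 of 5193 IDs were called (1.62%), of which 69 (1.33%) were lower and 15 (0.289%) higher in washed than in unwashed libraries, and 724 IDs had an unadjusted p under 0.05. The lower IDs changed by more than the higher ones. Their log2 fold changes ran from -9.26 to -0.88 with a median of -3.27, and 53 of the 69 were beyond 4-fold. The median was -2.90 when the 13 of them with 0 counts in every washed library were placed at the bound that 3 counts over the arm allow. The higher IDs ran from 0.67 to 3.57 with a median of 1.32, and 3 of the 15 were beyond 4-fold. Across all IDs tested the median was -0.02. At the threshold, the last called ID had an adjusted p of 0.04995 and a log2 fold change of 1.04, and the first ID not called an adjusted p of 0.0504 and a log2 fold change of 0.90.

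**Figure D1:**
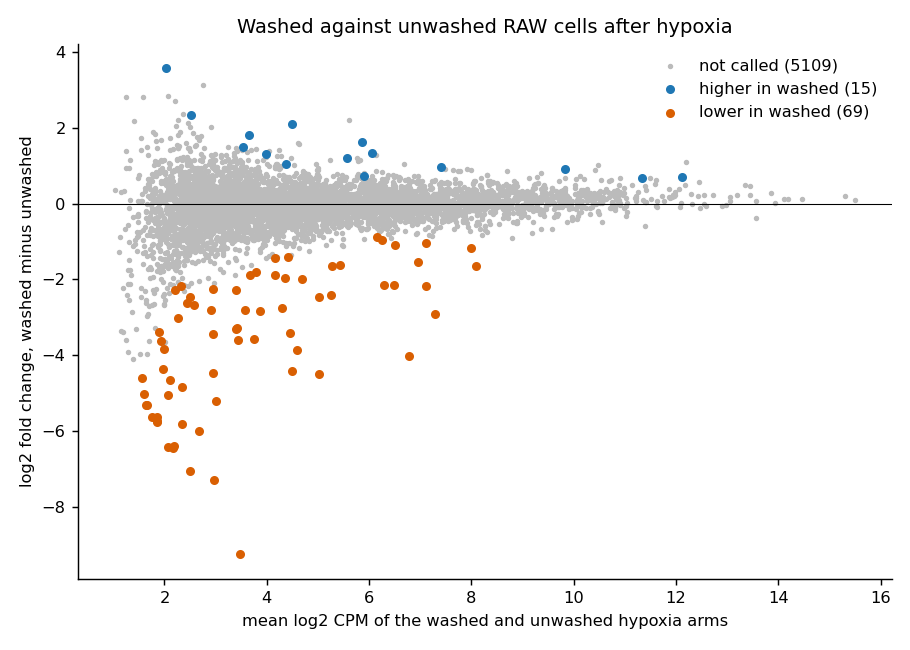
Log2 fold change of washed minus unwashed hypoxia libraries (vertical axis) against the mean log2 CPM of both arms (horizontal axis) for 5193 IDs, each point 1 ID. The 69 called lower IDs reach down to -9.26 and lie mostly at low and intermediate levels, whereas the 15 called higher IDs reach up to 3.57 and include some of the most abundant IDs.

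The arms did not overlap at 48 of the 69 lower and 5 of the 15 higher IDs. Over all IDs tested, all 6 washed libraries lay below all 6 unwashed ones at 65 (1.25%) and above them at 18 (0.347%). When libraries with the same replicate number and SPP1 level were set side by side, washed was below unwashed at 62 to 69 of the 69 lower IDs in each of the 6 pairs and above it at 14 or 15 of the 15 higher IDs. These counts describe IDs that had been chosen by the same contrast and are no further test of it.

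The set of calls, and above all the higher calls, depended on which libraries entered the fit. A fit of only the 12 hypoxia libraries tested 3948 IDs and called 39, all of them lower and all among the 84, and no higher ID passed the test (362 IDs in either direction had an unadjusted p under 0.05). Leaving out unwashed hypoxia no-SPP1 replicate 2, one of the libraries set apart on the first component, gave 156 calls (64 higher, 92 lower), of which 77 were among the 84. Without washed hypoxia SPP1 replicate 3 there were 126 calls (35 higher, 91 lower), at 1.5 times the number from all libraries, with 73 of the 84 among them. Leaving out any other 1 of the 12 libraries gave between 60 and 97 calls. The higher calls numbered 6 when washed hypoxia SPP1 replicate 1 was left out and 4 when washed hypoxia no-SPP1 replicate 2 was, whereas the lower calls never fell below 55. Without both libraries set apart on the first component, an alternative chosen after seeing the data, 76 IDs were called (14 higher, 62 lower) and 60 of the 84 were among them.

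**Figure D2:**
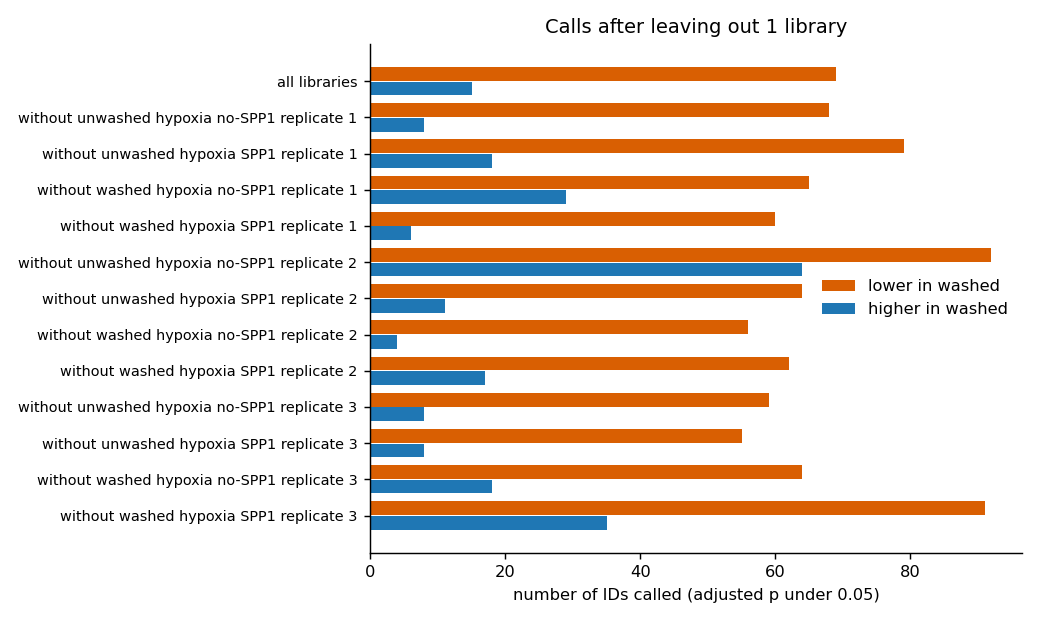
Number of IDs called (horizontal axis) higher or lower in washed than in unwashed hypoxia libraries, with all libraries and after leaving out each of the 12 libraries in turn (vertical axis). Lower calls stay between 55 and 92, while higher calls range from 4 to 64.

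The lower IDs were of the on-off kind in many cases. In the 6 washed hypoxia libraries, 29 of the 69 had at most 3 counts in every library, and 13 of these had none. In the unwashed hypoxia libraries 0 of the 69 were that low in every library. Because the 69 were chosen as lower in washed, an ID so low throughout the unwashed arm could hardly be among them. The gap between these arms describes the chosen IDs and is no further test. Per library, 22 to 35 of the 69 exceeded 3 counts in washed (median 30) and 54 to 68 in unwashed (median 63). The median of the mean levels was 2.61 CPM in washed and 26.9 CPM in unwashed. Together the 69 IDs took 0.0859% to 0.115% of the counts of a washed library and 0.314% to 0.668% of those of an unwashed one. The IDs were thus a small part of the RNA in both arms. Of the 69, 27 stayed under a mean log2 CPM of 4 in both arms, where counting error is wide. So did 2174 of all 5193 IDs tested, so low levels were not particular to this list.

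By a rule on level, direction and size, 2 IDs were named in each direction. ENSG00000037241 had 0 counts in all 6 washed hypoxia libraries. In the unwashed ones it had 60.1, 148 and 54.2 CPM without SPP1 and 30.3, 62.1 and 83.6 CPM with SPP1, or 38 to 126 counts. The arms were fully apart, and with 446 counts in unwashed the level in washed was at least 135-fold lower (bound from 3 counts over the arm, adjusted p 2.97e-07). This call was kept in all 19 alternatives, with an adjusted p of at most 3.06e-05.

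ENSG00000091656 had 1 count in all washed hypoxia libraries together, in SPP1 replicate 2. Its unwashed values were 30.04, 9.37 and 40.4 CPM without SPP1 and 14.3, 36.4 and 94.3 CPM with SPP1, 251 counts in all. The arms did not overlap, although the unwashed libraries themselves differed widely, with a mean of 37.5 ± 30.4 CPM (SD, n = 6). The ratio of unwashed to washed was 228 with an exact 95% counting interval of 40.5 to 9026, which covers counting error only, and the adjusted p was 0.000697. It kept its call in all 19 alternatives as well.

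Among the higher IDs, ENSG00000120910 had 17.4 to 127 CPM in washed (median 32.7) and 4.10 to 38.6 CPM in unwashed (median 9.84). The ranges overlapped. The highest washed values came from SPP1 replicate 1 (127 CPM) and no-SPP1 replicate 2 (90.8 CPM), and the highest unwashed value from no-SPP1 replicate 2 (38.6 CPM). The means were 53.3 ± 45.2 and 13.5 ± 12.9 CPM (SD, n = 6 each), and washed exceeded unwashed by 2.10 on the log2 scale (SE 0.46, adjusted p 0.00702). The call was lost without washed hypoxia SPP1 replicate 1 (log2 fold change 1.46, adjusted p 0.0996), without washed hypoxia no-SPP1 replicate 2 (1.69, adjusted p 0.0677) and when the hypoxia libraries were fitted alone (adjusted p 0.164).

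ENSG00000163041 had 10.1 to 67.6 CPM in washed (median 16.1) and 2.96 to 11.96 CPM in unwashed (median 5.33). The ranges overlapped slightly, and 1 washed library, SPP1 replicate 1 at 67.6 CPM, stood far above the other 5, which reached at most 18.3 CPM. The log2 fold change was 1.81 (SE 0.40, adjusted p 0.00715). It was 1.12 without that library (adjusted p 0.139), and the call was also lost when the hypoxia libraries were fitted alone (adjusted p 0.189) and without both libraries set apart on the first component (adjusted p 0.111).

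The level of the higher IDs varied among the libraries of an arm. Their mean log2 CPM was 7.26 in washed hypoxia SPP1 replicate 1 and 7.00 in washed hypoxia no-SPP1 replicate 2, against 5.95 to 6.34 in the other 4 washed libraries. Among the unwashed libraries it was highest, at 5.63, in no-SPP1 replicate 2, and 5.10 to 5.58 in the other 5. Of these 3 libraries, washed SPP1 replicate 1 and unwashed no-SPP1 replicate 2 were the ones set apart on the first component, while washed no-SPP1 replicate 2 lay at 13.1 there. RNA integrity per library was not used here, and the part of these libraries in the higher calls was not tested beyond the fits that leave them out.

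**Figure D3:**
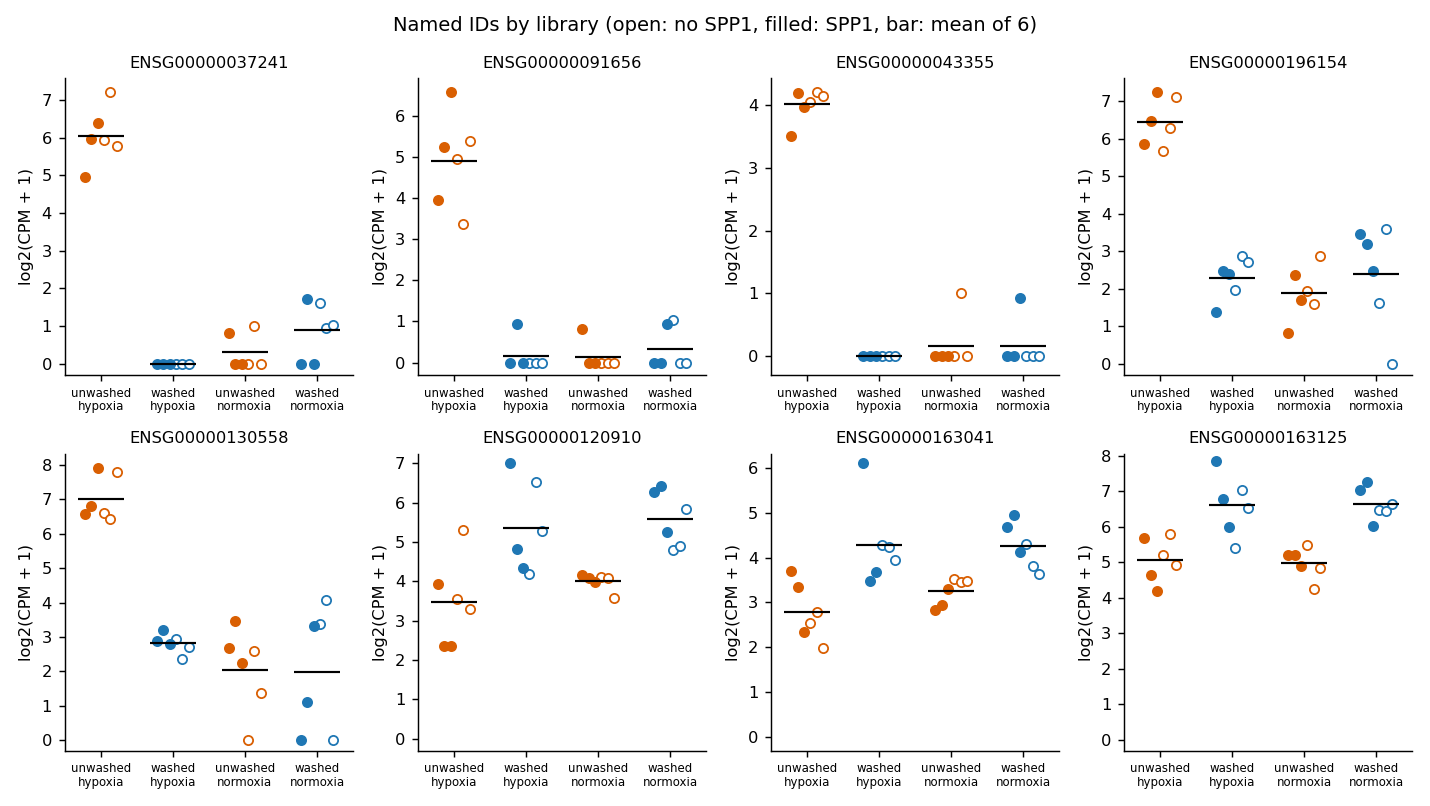
Levels of the 8 named IDs as log2(CPM + 1) (vertical axis) in the unwashed and washed arms after hypoxia and normoxia, each point 1 library, open without and filled with SPP1, bars the mean of 6. For the first 5 IDs the unwashed hypoxia libraries stand above the other 3 arms, with ENSG00000037241 at 0 in all 6 washed hypoxia libraries, whereas the last 3 IDs are higher in washed than in unwashed at both oxygen levels.

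The SPP1 levels were examined one at a time next. Without SPP1 19 IDs were called (0.366%), all lower in washed, and with SPP1 23 (0.443%), of which 21 were lower and 2 higher. Unadjusted p-values under 0.05 numbered 418 and 615. The lists shared 10 IDs, or 52.6% of the former and 43.5% of the latter. Of the 84 IDs called over both levels, 53 were called at neither level alone, where each arm had 3 libraries, and all 84 had the same sign at both. The median log2 fold change of the 69 lower IDs was -2.85 without and -3.18 with SPP1, and that of the 15 higher IDs 1.25 and 1.33. The 84 were chosen by the mean over these levels, which favors the same sign and similar medians at both. Neither agreement is a further test.

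The direct test of a difference between the SPP1 levels called 0 of 5193 IDs (0%) with edgeR, while 259 had an unadjusted p under 0.05. DESeq2 called 1 ID, and edgeR called 20, all higher, when every ID with a count was kept, and 0 or 1 when 1 library was left out. The count of 0 with 3 libraries in each group does not show that the effects at the SPP1 levels were alike.

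At the level of single IDs the same rule was applied to each SPP1 level after values had been seen. ENSG00000037241 was lower at both, at least 82.5-fold without SPP1 (adjusted p 0.000230) and at least 56.3-fold with it (adjusted p 0.00167). ENSG00000043355 was at 0 counts in all 6 washed libraries, and had 15.6, 17.6 and 16.8 CPM in unwashed without SPP1 and 10.4, 17.4 and 14.8 CPM with SPP1. In proportion to its mean it varied least among the named lower IDs in unwashed, at 15.4 ± 2.69 CPM (SD, n = 6). It was at least 29.3-fold lower over both levels (adjusted p 3.49e-05). It was called at each level, at least 13.6-fold lower with SPP1 (adjusted p 0.0110) and at least 16.1-fold lower without SPP1 (adjusted p 0.00974). That call without SPP1 was lost when washed no-SPP1 replicate 1, 2 or 3 was left out (adjusted p 0.0588, 0.0777 and 0.0631).

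Without SPP1, ENSG00000091656 had 0 counts in washed and 74 in unwashed and was not called (adjusted p 0.0998). With SPP1 it had 1 count in washed and 177 in unwashed, a ratio of 139 with a counting interval of 24.7 to 5527 (adjusted p 0.0436). The call at this level was lost when any of 5 of the 6 SPP1 libraries was left out, the exception being unwashed replicate 1. The adjusted p was 0.172, 0.110 and 0.0730 without washed replicates 1, 2 and 3, and 0.0824 and 0.290 without unwashed replicates 2 and 3. It was 0.160 without both libraries set apart on the first component.

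The 2 IDs called higher with SPP1 were ENSG00000163125 and ENSG00000120910. ENSG00000163125 had 232, 110 and 63.3 CPM in washed and 50.2, 24.0 and 17.2 CPM in unwashed with SPP1, so that the groups did not overlap. Its log2 fold change was 2.12 with SPP1 (SE 0.43, adjusted p 0.0110) and 1.62 over both levels (SE 0.30, adjusted p 0.000826). The former call was lost without washed SPP1 replicate 1 (adjusted p 0.203) and without unwashed SPP1 replicates 2 (0.0846) and 3 (0.163) and without both libraries set apart (0.172). Both calls were lost when the hypoxia libraries were fitted alone (adjusted p 0.140 with SPP1 and 0.0606 over both levels).

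ENSG00000120910 had 127, 27.5 and 19.4 CPM in washed and 14.3, 4.14 and 4.10 CPM in unwashed with SPP1, higher in washed by 2.87 on the log2 scale (SE 0.68, adjusted p 0.0436). Without washed SPP1 replicate 1 the log2 fold change was 1.61 (adjusted p 0.896). The call was also lost without unwashed SPP1 replicates 2 (adjusted p 0.188) and 3 (0.291) and without washed no-SPP1 replicate 3 (0.0507), without both libraries set apart (0.646) and with the hypoxia libraries fitted alone (0.316).

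The counts at single SPP1 levels rested on few libraries. Without SPP1 the 19 calls became 3, 5 and 5 when washed replicates 1, 2 and 3 were left out. With SPP1 the 23 calls (2 higher, 21 lower) became 2 without washed replicate 1 or unwashed replicate 3 and 8 without unwashed replicate 2, all of them lower. They became 10 without washed replicate 2, with 5 in each direction, and 64 without washed replicate 3, with 34 higher and 30 lower, so that the excess of lower calls at this level was lost without either library. They became 35 without unwashed replicate 1 (3 higher, 32 lower) and 37 without unwashed no-SPP1 replicate 2 (10 higher, 27 lower), which shares only the scaling, the filter and the estimate of the spread.

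The effect of washing was then set against that after normoxia. Among the 69 lower IDs the median log2 fold change of washed against unwashed was -3.27 after hypoxia and 0.07 after normoxia. After normoxia 31 of the 69 had a negative sign, and 0 were called lower in washed, against 0.443% of all IDs tested. At so small a share, 0 of 69 says little. Of the 69, 27 in unwashed and 24 in washed normoxia had at most 3 counts in every library. A fold change can hardly be measured there. The median of the higher IDs was 1.32 after hypoxia and 0.71 after normoxia, with 14 of 15 above 0. After normoxia 3 of 15 were called higher too, against 0.847% of all IDs. Over all IDs tested the median after normoxia was 0.03. The hypoxia medians of both lists come from the contrast that chose the IDs, which draws them away from 0, whereas the normoxia medians do not.

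**Figure D4:**
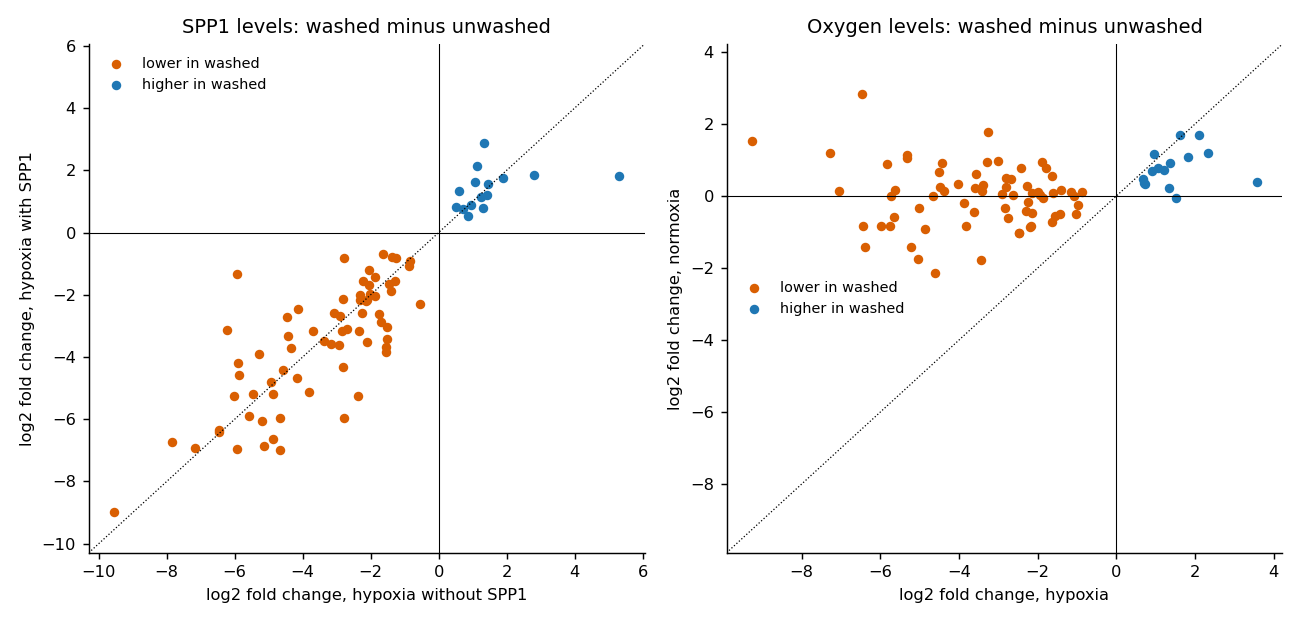
Log2 fold changes of washed minus unwashed libraries for the 84 called IDs, each point 1 ID, without SPP1 (horizontal) against with SPP1 (vertical) after hypoxia on the left, and after hypoxia (horizontal) against normoxia (vertical) on the right, with a dotted line of equality. All 84 IDs have the same sign at both SPP1 levels, which their choice by the mean over these levels favors. The 69 lower IDs scatter around 0 after normoxia, with 31 of them below it.

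The difference between hypoxia and normoxia was tested directly, and 9 of 5193 IDs were called (0.173%), with 366 at an unadjusted p under 0.05. All 9 belonged to the 69 lower IDs. Their washed against unwashed log2 fold changes ran from -4.50 to -1.65 after hypoxia and from 0.07 to 1.76 after normoxia, and the difference between the oxygen levels from -5.32 to -2.19 (adjusted p 0.000273 to 0.0422). For the remaining 60 lower IDs a difference between oxygen levels did not pass the test, which does not show that they lacked one. Where other arms are at or near 0 counts, the test can hardly decide. ENSG00000043355 had a mean of 15.4 CPM in unwashed hypoxia, 0 in washed hypoxia, and 0.151 and 0.167 CPM in washed and unwashed normoxia. The standard error of its difference was 15162 on the log2 scale. ENSG00000037241, at 73.0, 0, 1.06 and 0.295 CPM in the same order, missed the threshold (adjusted p 0.0549). The count of 9 became 25 without washed hypoxia SPP1 replicate 1, 4 without washed normoxia SPP1 replicate 2, and 5 without unwashed normoxia SPP1 replicate 1, washed hypoxia SPP1 replicate 2, washed normoxia no-SPP1 replicate 2 or unwashed hypoxia SPP1 replicate 3.

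ENSG00000196154 was one of the 2 IDs named for this difference. After hypoxia it had 1.61 to 6.26 CPM in washed (median 4.41) and 50.5 to 151 CPM in unwashed (median 82.9), with no overlap and a fitted log2 fold change of -4.42 (SE 0.66, adjusted p 5.21e-05). After normoxia it had 0 to 11.2 CPM in washed (median 6.32) and 0.771 to 6.26 CPM in unwashed (median 2.54). Of these 4 arms, unwashed hypoxia alone was high. The difference of the fold changes was -5.32 on the log2 scale (SE 1.14, adjusted p 0.0256). When each of the 24 libraries was left out in turn, the call was lost 8 times, with an adjusted p of 0.659 without washed normoxia no-SPP1 replicate 2. It was 0.0510 and 0.0634 without unwashed normoxia no-SPP1 and SPP1 replicate 1, 0.0623 and 0.0592 without washed normoxia SPP1 replicates 1 and 2, 0.0529 without washed hypoxia SPP1 replicate 2, and 0.0536 and 0.0609 without unwashed hypoxia no-SPP1 and SPP1 replicate 3.

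ENSG00000130558 followed the same order of arms. It had 4.17 to 8.26 CPM in washed (median 6.17) and 85.5 to 241 CPM in unwashed hypoxia (median 104), and the fitted log2 fold change was -4.50 (SE 0.64, adjusted p 3.12e-05). After normoxia it had 0 to 15.8 CPM in washed (median 5.12) and 0 to 10.1 CPM in unwashed (median 4.35). The difference between oxygen levels, -5.17 on the log2 scale (SE 1.16, adjusted p 0.0422), was less firm. Its call was lost for 15 of the 24 libraries left out in turn, with an adjusted p of 0.596 without washed normoxia SPP1 replicate 3, 0.159 without washed normoxia no-SPP1 replicate 2 and 0.0509 to 0.0869 for the other 13. It was kept without unwashed or washed hypoxia SPP1 replicate 1, unwashed hypoxia no-SPP1 replicates 1 and 2, unwashed hypoxia SPP1 replicate 2, unwashed normoxia replicates 2 at both SPP1 levels, and washed normoxia SPP1 replicate 1 or no-SPP1 replicate 3. The hypoxia fold changes of both IDs kept their calls in all 19 alternatives.

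The named higher IDs were also higher in washed after normoxia. The log2 fold change there was 1.70 for ENSG00000120910 (SE 0.45, adjusted p 0.0465), 1.68 for ENSG00000163125 (SE 0.30, adjusted p 0.00370) and 1.08 for ENSG00000163041 (SE 0.38, adjusted p 0.118), of which the last was not called. For none of these 3 did the difference between oxygen levels pass the test (adjusted p 0.954, 0.992 and 0.855).

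The other arms of the series placed the 69 lower IDs. Levels in the medium libraries, which received no RAW264.7 cells, were mostly at or above those of the unwashed hypoxia arm. The median of the mean levels was 49.99 CPM in medium hypoxia and 37.1 CPM in medium normoxia, against 26.9 CPM in unwashed hypoxia. It was 3.83 CPM in washed normoxia, 3.91 CPM in unwashed normoxia and 6.84 CPM in naive libraries, against 2.61 CPM in washed hypoxia. Unwashed hypoxia thus lay below the medium arms and above the naive libraries, and washed hypoxia lay near both normoxia arms that held RAW264.7 cells. The gap between unwashed and washed hypoxia follows from the choice of the 69 IDs.

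The number of the 69 IDs over 3 counts per library gave the same order. Its median was 67 in medium hypoxia and 66 in medium normoxia, 63 in unwashed hypoxia, 41 in naive, 36 in unwashed normoxia, 32.5 in washed normoxia and 30 in washed hypoxia libraries. The IDs with at most 3 counts in every library of the arm numbered 1 in each medium arm, 0 in unwashed hypoxia, 22 in naive, 27 in unwashed normoxia, 24 in washed normoxia and 29 in washed hypoxia. Of the 29 that were so low in washed hypoxia, 24 were in unwashed normoxia, 23 in washed normoxia and 20 in naive libraries, and 16 were in all 3. Their mean levels in unwashed hypoxia ran from 3.05 to 73.0 CPM. Being so low in every library is easier to meet in the naive arm, which held 2 libraries. The 0 in unwashed and the 29 in washed hypoxia are favored by the choice of the 69 IDs.

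**Figure D5:**
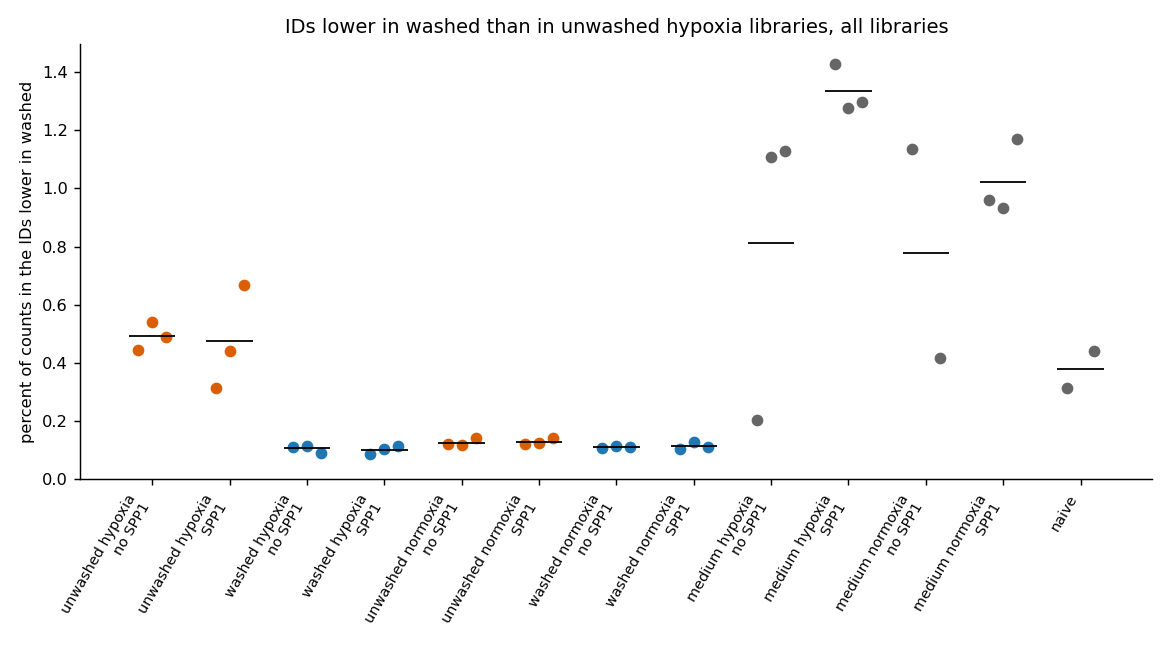
Percent of a library's tested counts that fell on the 69 IDs called lower in washed hypoxia libraries (vertical axis) in all 13 groups (horizontal axis), each point 1 library, bars the group mean. Unwashed hypoxia libraries (0.314% to 0.668%) stand above the washed hypoxia (0.0859% to 0.115%) and all normoxia libraries with RAW264.7 cells (up to 0.142%), and most medium libraries stand higher still.

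A pair of medium libraries departed from their arms. Medium hypoxia no-SPP1 replicate 1 had 38 of the 69 IDs over 3 counts and 0.205% of its counts on them, against 66 to 68 IDs and 1.11% to 1.43% in the other 5. Medium normoxia no-SPP1 replicate 3 had 57 IDs and 0.416%, against 66 or 67 IDs and 0.934% to 1.17%. Both lay below every other library of their arm. Without the former, an alternative chosen after seeing the data, all 84 IDs were called along with 24 others, 108 in all.

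The mean level over the 11 medium libraries was above the unwashed hypoxia mean at 61 of 69 IDs, with a median ratio of unwashed to medium of 0.537 (0.490 without medium hypoxia no-SPP1 replicate 1). The medium mean was above the washed hypoxia mean at 69 of 69. Every medium library lay above every washed hypoxia library at 27 of 69 IDs, and at 51 without that replicate. The 69 IDs were chosen as low in washed hypoxia, which favors any other arm lying above it. The same counts over all IDs tested were not taken, so these counts are no test. These are levels set side by side, and the difference between the medium and the unwashed arm was not tested for this list.

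The named lower IDs followed this order in different degrees. ENSG00000037241 had 102 ± 57.3 CPM in medium hypoxia and 73.0 ± 40.3 in unwashed hypoxia (SD, n = 6 each), with overlapping ranges of 3.85 to 160 and 30.3 to 148 CPM. ENSG00000196154 had 623 ± 340 CPM in medium hypoxia against 93.6 ± 41.9 in unwashed hypoxia, and ENSG00000130558 had 581 ± 343 against 142 ± 70.5. For both of the latter, medium hypoxia no-SPP1 replicate 1 had the lowest medium value, 13.9 and 18.5 CPM, below every unwashed hypoxia library. In the naive libraries ENSG00000037241 had 0 and 3 counts, and ENSG00000091656 and ENSG00000043355 had 0 in both.

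The 15 higher IDs had another order of arms. The median of their mean levels was 74.4 CPM in washed hypoxia and 60.8 CPM in washed normoxia, 40.0 CPM in naive, 31.98 CPM in unwashed hypoxia, 31.7 CPM in unwashed normoxia, and 17.1 and 17.4 CPM in medium hypoxia and normoxia. Both washed arms were thus above both unwashed arms, and the unwashed arms above the medium arms. The gap between washed and unwashed hypoxia follows from the choice of the 15 IDs. ENSG00000163125 had 111 ± 67.0 CPM in washed hypoxia, 35.3 ± 14.8 in unwashed hypoxia and 18.3 ± 3.49 in medium hypoxia (SD, n = 6 each). Every washed hypoxia library (from 41.5 CPM) was above every medium hypoxia library (up to 23.1 CPM), whereas washed and unwashed overlapped.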

How the data were processed

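Bulk RNA of splenocyte cultures was sequenced as single reads from 3′ mRNA libraries. Per the series text, bbduk was used for trimming, STAR 2.7.10b for alignment to GRCh38 (hg38 in the submitters' processing notes) and featureCounts (Rsubread 2.0.3) for quantification. The deposited values are the authors' unnormalized counts, and whole numbers made up 100% of them. Strand setting, annotation release, treatment of multiply aligned reads and use of the unique molecular identifiers were not given in the sources used here, so a count may include PCR copies, and IDs of paralogs or overlapping genes may share reads. The labels require a minimum RNA integrity number, and the range they quote extends from below to above that minimum.

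Groups were taken from the treatment label and replicate numbers from the titles. In edgeR 4.0.16 (R 4.3.3) the IDs were filtered by filterByExpr (minimum count 10), scaled by TMM and fitted in 1 quasi-likelihood model with 13 group means over 37 libraries. Standard errors were derived from the F statistic. Intervals and floors (3 counts over an arm) cover counting error only. Log2 CPM used a prior count of 2. Named IDs had to be called, reach a mean log2 CPM of 4 in 1 or both arms and change in the same direction at each replicate number, and of these the 2 largest per direction were named because the IDs carry no symbols. For the difference between oxygen levels the 2 largest called IDs of that level were named. The planned gene lists, cell type markers and promoter motifs could not be used without symbols. The comparison, its members and the tests were chosen with earlier results of these data known. No 2 replicates agreed within sampling noise (chi-square per degree of freedom 4.80 to 42.9). Alternatives were RLE scaling, no filter, DESeq2 1.42.0, fits of fewer groups, a replicate block and leaving out each library. The pipeline was tested on simulated data.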

Additional observations from a re-analysis of the deposited data

Results flagged for a closer look

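A library was noted where its gap to the nearest other of its arm exceeded, as a share of the arm's range, Dixon's 95% critical value. Such a library was held by 9 of 38 sets of values. Chance gives about 5% of sets only for independent, normally distributed values. The sets here shared libraries, and some held values at or near 0, so the count of 9 does not measure an excess over chance. On the first principal component the libraries noted were washed hypoxia SPP1 replicate 1 (79.6) and unwashed hypoxia no-SPP1 replicate 2 (34.1). The former was also far above its arm for ENSG00000163041 (67.6 CPM) and the latter for ENSG00000120910 (38.6 CPM). For ENSG00000091656, unwashed hypoxia SPP1 replicate 3 (94.3 CPM) stood above its arm. In the washed arm SPP1 replicate 2 (0.918 CPM) held the only count, which the rule flags whatever its size. Medium hypoxia no-SPP1 replicate 1 stood below its arm in the number of the 69 lower IDs over 3 counts (38) and in their percent of counts (0.205%), as did medium normoxia no-SPP1 replicate 3 in the former (57).

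The effect of washing differed between hypoxia and normoxia, by the test of that difference, at 9 IDs, among them ENSG00000196154 (-5.32 on the log2 scale) and ENSG00000130558 (-5.17). In the medium libraries, which the comparison of washed and unwashed cells did not use, the median hypoxia library had 67 of the 69 lower IDs over 3 counts, above the 40 and 42 of the naive libraries.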

How the results depend on the processing

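No named ID changed direction under any alternative run, and lower calls outnumbered higher ones in every fit of washed against unwashed after hypoxia over both SPP1 levels. With SPP1 alone they did not without washed hypoxia SPP1 replicate 3 (34 higher, 30 lower) or replicate 2 (5 and 5). For washed against unwashed after hypoxia (84 IDs), 156 were called with no filter on low counts, 39 in the fit of only the hypoxia libraries, 133 with DESeq2 (35 higher, 98 lower), and 60 to 156 when 1 library was left out. Without SPP1 (19) the count was 67 with no filter, 37 with DESeq2, 3 to 23 when 1 library was left out and 38 without medium hypoxia no-SPP1 replicate 1. With SPP1 (23) it was 93 with no filter, 51 with DESeq2, 2 to 64 when 1 library was left out, 46 without medium hypoxia no-SPP1 replicate 1 and 5 without both libraries set apart on the first component. The difference between SPP1 levels (0) gave 20 calls with no filter, 1 with DESeq2 and 0 to 1 when 1 library was left out. The difference between oxygen levels (9) gave 52 with no filter, 32 with DESeq2, 15 in the fit of only the washed and unwashed libraries, 4 to 25 when 1 library was left out, 16 without medium hypoxia no-SPP1 replicate 1 and 18 without both libraries set apart. Fits with fewer libraries or every ID changed the IDs tested and the shared spread; otherwise the cause was not tested.

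RLE scaling gave 83 calls (14 higher, 69 lower). With the replicate number as a block the counts were 85, 17, 24, 0 and 10 in the same order, and of the named IDs ENSG00000091656 with SPP1 lost its call (adjusted p 0.0504). The deviations of same-numbered washed and unwashed libraries correlated between -0.0198 and 0.274. Because 1 of the 6 pairs (SPP1 replicate 1) was under 0.1 and the labels tie the numbers to no shared animal, batch or day, the block was not used for the reported values. As a hint from the data that numbers may mark shared conditions, 8 of 12 libraries correlated best with the library of their own number among the 3 of the other arm at the same SPP1 level. At totals of 761571 to 1337314 counts per library, 3 counts are a few CPM, which limits the 27 lower IDs under a mean log2 CPM of 4.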
